A study of Mus musculus with 20 samples.

Results

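Matrix metalloproteinases (the Mmp genes), the secreted proteases of the Adamts family, the Adamts-like proteins and the tissue inhibitors of metalloproteinases (the Timp genes) were followed across lymph nodes of 5 positions in mice. The genes were chosen by symbol, as Mmp, Adamts, Adamtsl or Timp followed by a number, and by a mean level over all libraries of at least 0.05 CPM (counts scaled to a common library total). Of 56258 genes in the table, 51 had such a symbol and 48 reached that mean. The 3 genes left out were Mmp1a, Mmp1b and Mmp10, the last at a mean of 0.00544 CPM, whereas the lowest genes kept were Adamts16 at 0.0678, Mmp21 at 0.0708 and Mmp24 at 0.0779 CPM. All 48 also passed the filter on low counts, which kept 29411 genes for testing.

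Metalloproteinases use a zinc ion to cut proteins of the extracellular matrix and of the cell surface, and most are made as inactive precursors that another protease must open. Collagenases cut fibrillar collagen, gelatinases cut basement membrane and denatured collagen, stromelysins cut a wide range of matrix proteins, and membrane-type enzymes act at the surface of the cell that makes them. Adamts proteases carry thrombospondin repeats and take proteoglycans, procollagens, cartilage oligomeric matrix protein or von Willebrand factor as substrates, while Adamts-like proteins have the repeats without the protease. Timp proteins bind the active site of these enzymes and block it. In lymph nodes such proteins act on the reticular fibres, sinuses and vessel walls that stromal cells maintain.

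Whole lymph nodes were taken from Rag1-/- mice (B6.129S7-Rag1tm1Mom/J) aged 9 weeks, and polyA RNA of the nodes was sequenced in bulk. The 4 gut-draining positions were the duodenal, jejunal, ileal and ceco-colonic nodes, and the inguinal node, which drains skin, was the reference outside the gut. Each position gave 4 libraries, 20 in all. Every mouse lacked Rag1 and with it mature T and B cells, in all groups alike, so the values describe nodes without these cells. Whether the 4 libraries at each position stem from different mice is not stated in the labels, and p-values therefore measure only the spread between these libraries.

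Libraries held 148.2 to 304.6 M estimated counts (M, mega). The 7 markers of lymph node stroma and sinus were present in all libraries, with a summed level of 2890 to 6283 CPM, and 5 markers of mature lymphocytes summed to 3.79 to 12.5 CPM. Transcripts of neighbouring tissue differed between libraries. Pancreatic acinar markers (5 genes) summed to 20940 and 10980 CPM in duodenal libraries 1 and 2 and to 5.62 to 68.3 CPM in the other libraries. Smooth muscle markers (5 genes) summed to 973 and 988 CPM in duodenal libraries 2 and 3, against 185 to 490.3 CPM elsewhere. Adipocyte markers (5 genes) reached 1125 CPM in jejunal library 2, against 65.3 to 666 CPM elsewhere.

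Levels of different genes were compared per transcript length, as TPM (transcripts scaled to a common library total after division by length) averaged over the 20 libraries. The inhibitor Timp2 had the highest mean at 242 TPM, followed by the membrane-type enzyme Mmp14 at 117, Mmp23 at 79.9 and the matrix-bound inhibitor Timp3 at 76.6 TPM. Adamts10 (54.01 TPM), Mmp25 (49.0), Mmp2 (42.1) and Mmp3 (26.0) came next. At the other end, Adamts16, Mmp24, Mmp21, Adamts19 and Mmp20 had means below 0.1 TPM. The 4 inhibitors together made 287.5 ± 73.7 TPM in duodenal, 325 ± 38.7 in jejunal, 354 ± 18.5 in ileal, 292 ± 22.8 in ceco-colonic and 418 ± 24.02 TPM in inguinal nodes (mean ± SD, n = 4 libraries each). The 20 Mmp genes together made 298 ± 50.5, 333 ± 25.3, 391 ± 16.5, 450.0 ± 28.2 and 339 ± 29.3 TPM in the same order, and the 19 Adamts genes 98.2 ± 22.5, 102.1 ± 8.98, 113 ± 6.29, 117 ± 14.98 and 121 ± 5.88 TPM. Of the Mmp sum, stromelysins, matrilysin and macrophage elastase made 98.5 TPM in the ceco-colonic, 21.4 in the ileal, 40.5 in the inguinal and 13.8 TPM in the duodenal node. Membrane-type enzymes made 203, 202, 159 and 154 TPM in the same order. Against the ileal node the high ceco-colonic sum thus rests on the former group, while against the inguinal and duodenal nodes both groups were higher. Within the former group Mmp3 had the highest mean TPM (26.0), against 2.40 for Mmp7 and 4.04 for the leading transcript of Mmp11. It also had the group's largest fold change between ileal and ceco-colonic nodes (log2 of -2.97), so the rise of the sum does not stand for the whole group. These sums are levels that were not tested. TPM is a share of the library, and acinar transcripts take part of it in duodenal libraries 1 and 2.

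For some members much of this level lay in transcripts that the annotation does not class as protein-coding. Adamts10, which acts on fibrillin microfibrils, had 78.4% to 82.3% of its TPM in such transcripts (range of the position means), most of it from nonsense-mediated decay and retained-intron models. Adamts19 had 91.6% to 99.3% there, and its leading model was a retained intron. Mmp23 had 38.1% to 43.2%. For Mmp12 the share was 64.0% ± 4.58 in duodenal and 43.7% ± 2.06 in inguinal nodes (SD, n = 4). Adamtsl1 and Adamts18 had a retained intron as leading model. For Adamtsl1 the share was 26.0% ± 4.03 in jejunal and 68.7% ± 4.77 in ceco-colonic nodes. For Adamts18 it was 73.6% to 78.7% at the gut positions and 52.4% ± 19.4 in inguinal nodes. Mmp3, Mmp7, Mmp8, Mmp13 and Mmp20 each had a single transcript, a coding one.

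Differences between positions were tested in the whole table. A gene was called where edgeR's quasi-likelihood test gave p under 0.05 after Benjamini-Hochberg adjustment across the tested genes. Fold changes are on the log2 scale, with their standard error (SE), and a minus sign means lower in the first group named. Among the 5 positions 32 of 48 members (66.7%) were called, against 35.7% of all genes tested. For the 4 gut positions alone 26 of 48 were called, against 21.3% of all genes. Gut-draining nodes (mean of the 4 positions) had 13 members higher and 11 lower than the inguinal node, where 13.4% of all genes were higher and 12.9% lower. Small intestinal nodes (mean of duodenal, jejunal and ileal) had 8 members higher and 11 lower than the ceco-colonic node, where 8.90% and 7.74% of all genes were. The ceco-colonic node, set against the inguinal node, had 11 members higher and 9 lower, beside 10.6% and 10.3% of all genes. The members' median absolute fold change in gut-draining against inguinal nodes was 0.37, against 0.19 over all genes, while their median signed fold change was 0.085, near 0.

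**Figure D1:**
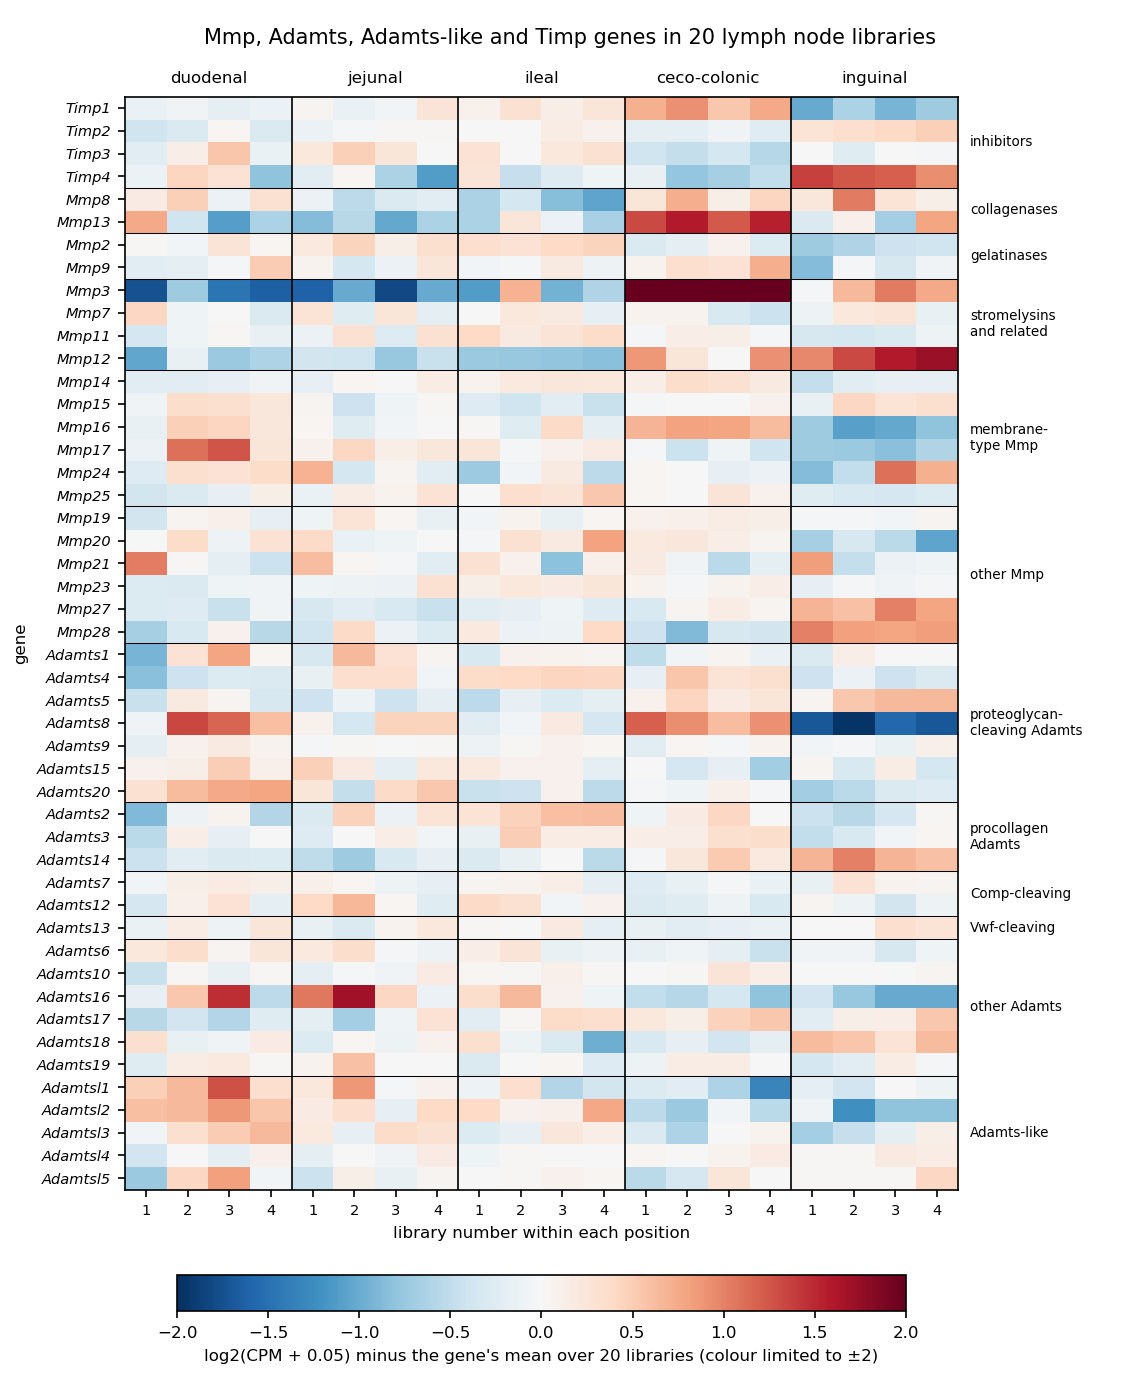
Level of the 48 genes in each of the 20 libraries, as log2(CPM + 0.05) minus the gene's mean over libraries, with genes in rows by role and libraries in columns by position. Mmp3 and Mmp13 are red across the 4 ceco-colonic libraries, Timp4, Mmp12, Mmp27 and Mmp28 are red across the 4 inguinal libraries, and Adamts8 is blue there.

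**Figure D2:**
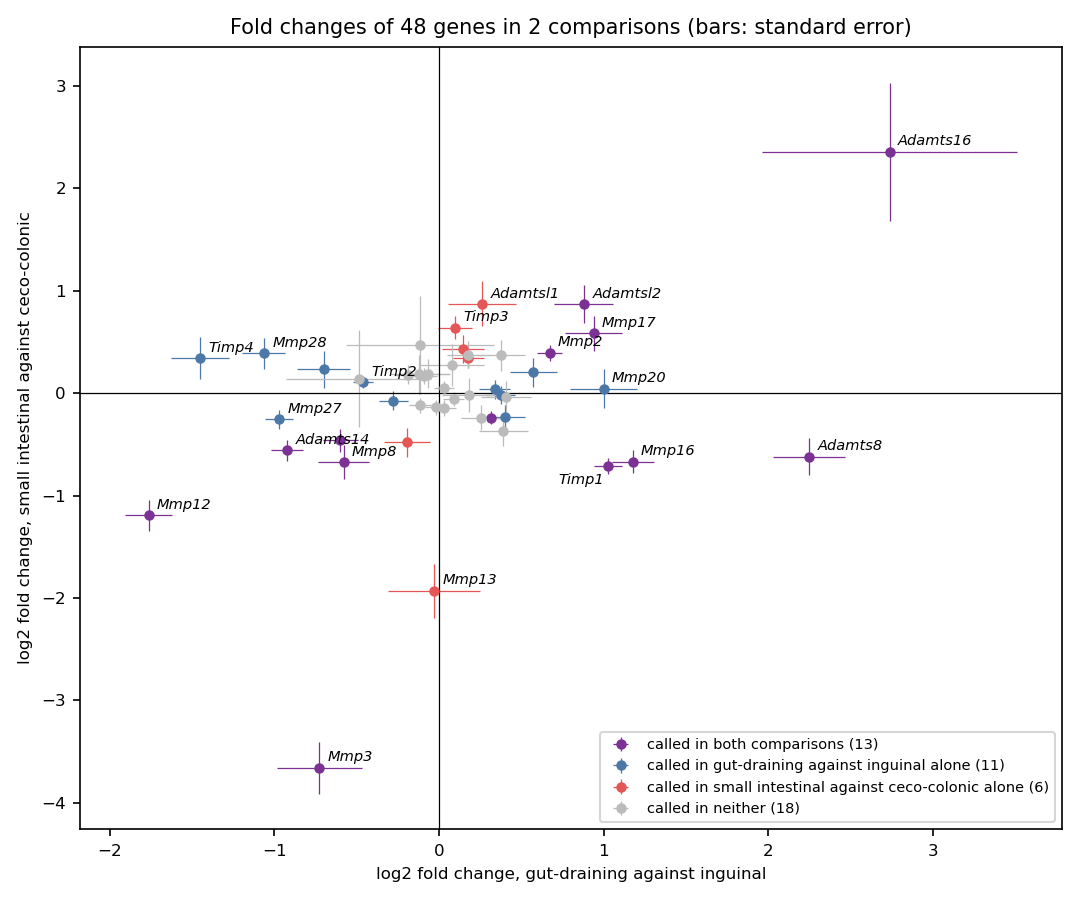
Log2 fold change of each of the 48 genes in gut-draining against inguinal nodes (horizontal axis) and in small intestinal against ceco-colonic nodes (vertical axis), with standard errors as bars and the calls as colours. Members lie on both sides of 0 on both axes, the comparisons share the gut libraries, and the lowest point on the vertical axis is Mmp3 at -3.66.

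The 4 inhibitors did not move together. Timp1 was higher in gut-draining nodes and Timp2 and Timp4 were higher in the inguinal node, while Timp3 separated the small intestinal nodes from the ceco-colonic node. Because whole nodes were sequenced, fewer cells of a type and less RNA per cell cannot be told apart for these or any later gene.

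Timp1 (ENSMUSG00000001131), a secreted inhibitor whose gene responds to inflammatory signals, stood at 5.94, 6.19, 5.71 and 6.03 CPM in duodenal libraries 1 to 4, 6.80, 5.93, 6.26 and 7.79 in the jejunal, 6.90, 8.10, 7.14 and 7.75 in the ileal, 10.7, 12.3, 9.50 and 11.1 in the ceco-colonic and 3.23, 4.21, 3.42 and 3.95 in the inguinal libraries. The lowest gut library lay above the highest inguinal library, and the 4 ceco-colonic libraries lay above all 12 small intestinal ones. The fold change was 1.03 ± 0.086 (SE), adjusted p = 1.28e-08 in gut-draining against inguinal nodes and -0.71 ± 0.079 (SE), adjusted p = 1.98e-06 in small intestinal against ceco-colonic nodes. In the ceco-colonic node alone the difference from inguinal was 1.56 ± 0.10 (SE), adjusted p = 1.10e-09.

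Timp2 (ENSMUSG00000017466), which both inhibits Mmp2 and helps Mmp14 to activate it, stood at 307, 331, 413 and 331 CPM in duodenal libraries 1 to 4, 372, 399, 409 and 412 in the jejunal, 401, 409, 450.5 and 430.5 in the ileal, 353, 358, 385 and 342 in the ceco-colonic and 488, 509, 534 and 565 in the inguinal libraries. Inguinal libraries lay above all 16 gut libraries. Timp2 fell by 0.46 ± 0.062 (SE) in gut-draining against inguinal nodes (adjusted p = 3.97e-06), and small intestinal against ceco-colonic nodes gave 0.11 ± 0.063 (SE), adjusted p = 0.295.

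Timp4 (ENSMUSG00000030317), an inhibitor of more restricted expression known from heart and fat, stood at 5.56, 8.15, 7.39 and 3.43 CPM in duodenal libraries 1 to 4, 5.21, 6.17, 3.87 and 2.74 in the jejunal, 7.18, 4.34, 5.04 and 5.68 in the ileal, 5.44, 3.49, 3.76 and 4.24 in the ceco-colonic and 15.6, 14.3, 13.9 and 11.6 in the inguinal libraries. No gut library reached the lowest inguinal library. The fold change was -1.45 ± 0.18 (SE), adjusted p = 2.22e-06 in gut-draining against inguinal nodes. The adipocyte sum lay between 76.1 and 520 CPM in inguinal libraries, between 65.3 and 193 CPM in ceco-colonic ones and between 83.1 and 1125 CPM in small intestinal ones. In the jejunal, ceco-colonic and inguinal positions the library with the highest Timp4 was also the one with the highest adipocyte sum, and in the duodenal and ileal positions it was not. The part of fat in the Timp4 difference was not tested.

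Timp3 (ENSMUSG00000020044), which is held in the matrix and also blocks Adam and Adamts proteases, stood at 212, 272, 361 and 225 CPM in duodenal libraries 1 to 4, 288, 344, 292 and 248 in the jejunal, 301, 249.5, 287 and 307 in the ileal, 188, 177, 193 and 167 in the ceco-colonic and 248, 208, 248 and 240.0 in the inguinal libraries. All ceco-colonic libraries lay below all small intestinal libraries, and the inguinal libraries lay among the latter except for library 2, at 208 CPM. Small intestinal nodes were higher than the ceco-colonic node (0.64 ± 0.11 (SE), adjusted p = 3.04e-04), whereas gut-draining against inguinal nodes gave 0.10 ± 0.10 (SE), adjusted p = 0.556. The ceco-colonic node was below the inguinal node (-0.38 ± 0.13 (SE), adjusted p = 0.0417), but leaving out any 1 of 6 ceco-colonic or inguinal libraries (numbers 1, 2 and 4 of the former and 1, 3 and 4 of the latter) ended this call, with adjusted p of 0.0614 to 0.11.

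**Figure D3:**
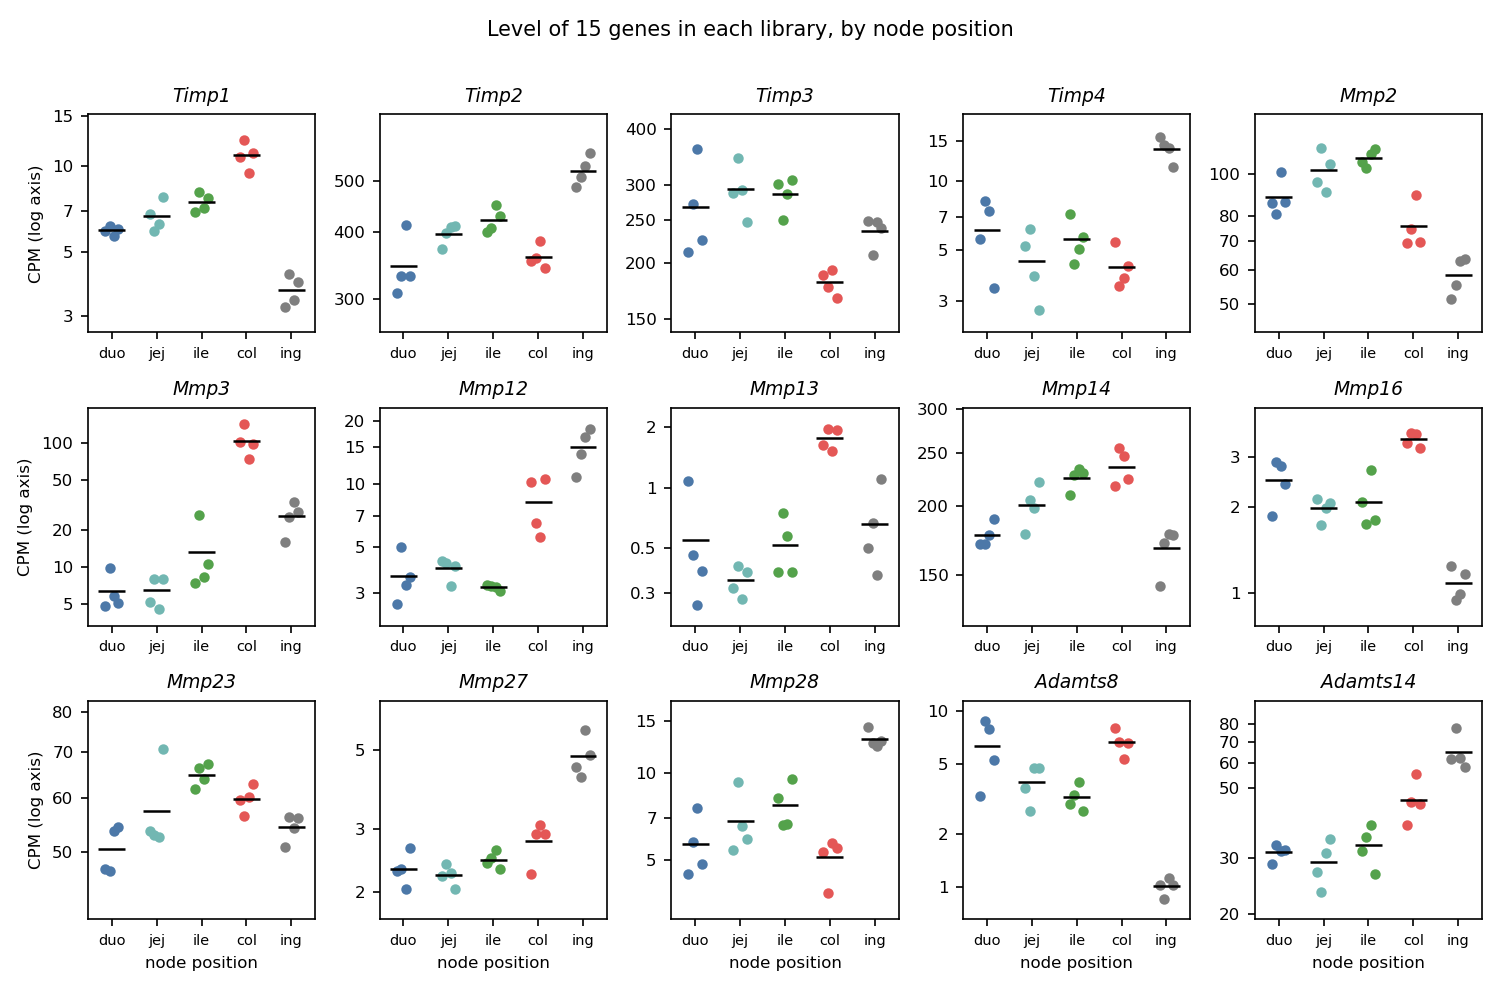
CPM of 15 genes in each library (points, log axis) by position, with the mean of the 4 libraries as a bar. Timp1 sits above the inguinal level at every gut position and Timp2 and Timp4 below it, while Mmp3 stands at 73.7 CPM or more in the ceco-colonic libraries and at 33.2 CPM or less in all others.

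On mouse chromosome 9 of the RefSeq assembly GRCm38.p6, Mmp13, Mmp12, Mmp1b, Mmp3, Mmp1a, Mmp10, Mmp8, Mmp27, Mmp20 and Mmp7 follow one another with 0 protein-coding genes between them. This run holds Mmp3 and Mmp12, with large differences between positions, and also Mmp7, which was not called. RefSeq promoter sequences were matched for 33 of the 48 members. The motif TGANTCA (N for any base), to which AP-1 factors bind and which reads the same on both strands, was searched in the 250 bases before the start. It occurred in 5 of these 33 members (15.2%), against 6.75% of 32851 promoters, and all 5 members belong to the run on chromosome 9: Mmp13, Mmp12, Mmp3, Mmp20 and Mmp7. TATAAA, the TATA box, searched on both strands, occurred in 7 members (21.2%), against 12.4% of all promoters, and did not overlap the AP-1 motif. A member was counted once if any of its starts had the motif, while the shares of all promoters are per start. Members with several starts, such as Mmp12 and Mmp7, thus had more chances, and the shares are not in the same unit. For the 5 genes with the AP-1 motif the 150 bases before the start are given, so that neighbours that moved apart can be compared. AP-1 and TATA letters are in capitals, and all sequences lie on the plus strand of GRCm38.p6. They are chr9:7272364-7272513 for Mmp13, chr9:7347224-7347373 for the downstream of the pair of Mmp12 starts, chr9:7445672-7445821 for Mmp3, chr9:7628081-7628230 for Mmp20 and chr9:7691940-7692089 for the upstream of the pair of Mmp7 starts.
Mmp13: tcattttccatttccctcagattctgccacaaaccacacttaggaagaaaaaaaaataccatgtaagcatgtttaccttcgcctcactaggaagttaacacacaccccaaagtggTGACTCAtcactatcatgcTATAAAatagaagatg
Mmp12: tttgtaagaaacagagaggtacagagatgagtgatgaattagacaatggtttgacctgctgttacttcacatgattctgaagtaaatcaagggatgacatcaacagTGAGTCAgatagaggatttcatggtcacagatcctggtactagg
Mmp3: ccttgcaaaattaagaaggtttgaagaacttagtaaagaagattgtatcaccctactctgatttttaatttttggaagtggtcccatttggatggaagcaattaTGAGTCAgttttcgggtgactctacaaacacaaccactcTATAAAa
Mmp20: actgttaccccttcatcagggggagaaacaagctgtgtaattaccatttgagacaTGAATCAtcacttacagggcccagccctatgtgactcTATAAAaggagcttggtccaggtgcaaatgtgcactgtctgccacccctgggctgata
Mmp7: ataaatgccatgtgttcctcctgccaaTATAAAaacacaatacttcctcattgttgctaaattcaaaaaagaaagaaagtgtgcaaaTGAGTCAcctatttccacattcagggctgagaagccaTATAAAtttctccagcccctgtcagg
The AP-1 letters begin 35 bases before the start in Mmp13, 44 in Mmp12, 46 in Mmp3, 63 in Mmp7 and 95 in Mmp20. Such a match describes the letters and does not show a bound site. Members with no promoter entry were Adamts4, Adamts5, Adamts6, Adamts7, Adamts8, Adamts10, Adamts15, Adamts16, Adamts19, Adamtsl1, Mmp2, Mmp9, Mmp16, Mmp17 and Mmp19.

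Mmp3 (ENSMUSG00000043613) encodes stromelysin-1, which cuts proteoglycans and fibronectin and opens the precursors of other metalloproteinases. It stood at 4.81, 9.85, 5.88 and 5.17 CPM in duodenal libraries 1 to 4, 5.23, 8.07, 4.59 and 7.99 in the jejunal, 7.46, 26.4, 8.36 and 10.6 in the ileal, 101.6, 141, 73.7 and 96.8 in the ceco-colonic and 15.98, 25.4, 33.2 and 27.5 in the inguinal libraries. Each ceco-colonic library lay above every library of the other positions, and ileal library 2 was the one small intestinal library within the inguinal range. Means were 8.70 ± 5.91 CPM in the 12 small intestinal libraries and 103 ± 27.8 CPM in the 4 ceco-colonic libraries (mean ± SD), with a fold change of -3.66 ± 0.25 (SE), adjusted p = 4.36e-09. The ceco-colonic node was also above the inguinal node (2.02 ± 0.35 (SE), adjusted p = 2.51e-04). In gut-draining against inguinal nodes, where high ceco-colonic and low small intestinal levels are averaged, the value was -0.73 ± 0.26 (SE), adjusted p = 0.0426. That call ended with DESeq2 (adjusted p = 0.0786) and when any 1 of 13 libraries was left out, with adjusted p of 0.053 (without ceco-colonic library 1) to 0.186 (without inguinal library 3). The 13 were inguinal libraries 2, 3 and 4, duodenal libraries 1, 3 and 4, jejunal libraries 1 and 3, ileal libraries 3 and 4, and ceco-colonic libraries 1, 3 and 4. Fibroblast markers (7 genes) summed to 2412 to 2665 CPM in ceco-colonic libraries and to 2779 to 3460 CPM in small intestinal libraries. Markers of node stroma and sinus summed to 5282 to 6283 CPM in ceco-colonic and to 3860 to 5430 CPM in small intestinal libraries, and the highest sum was in ceco-colonic library 2, where Mmp3 was highest too. Of these, Ccl19 (412 to 522 against 203 to 401 CPM), Ccl21a (3233 to 3960 against 1172 to 2743 CPM) and Madcam1 (110.4 to 144 against 33.3 to 103.5 CPM) were above all small intestinal libraries in every ceco-colonic one. Cxcl13 was too (53.5 to 83.5 against 4.7 to 49.1 CPM). Lyve1 was below all small intestinal libraries in every ceco-colonic one (73.9 to 125 against 148.5 to 405 CPM). Marco (605 to 809 against 707 to 1716 CPM) and Ptprc (638 to 687.5 against 510 to 646.5 CPM) overlapped. The part of stromal cells in the Mmp3 difference was not tested.

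Mmp13 (ENSMUSG00000050578), the main interstitial collagenase of rodents, stood at 1.08, 0.461, 0.263 and 0.385 CPM in duodenal libraries 1 to 4, 0.318, 0.409, 0.281 and 0.381 in the jejunal, 0.381, 0.748, 0.572 and 0.379 in the ileal, 1.62, 1.96, 1.52 and 1.92 in the ceco-colonic and 0.502, 0.670, 0.368 and 1.10 in the inguinal libraries. Ceco-colonic libraries were again above all others, although the gene rests on 62 to 495 estimated counts per library. The fold change was -1.93 ± 0.26 (SE), adjusted p = 2.42e-05 in small intestinal against ceco-colonic nodes and 1.42 ± 0.35 (SE), adjusted p = 0.00605 in ceco-colonic against inguinal nodes, while gut-draining against inguinal nodes gave -0.031 ± 0.28 (SE), adjusted p = 0.955.

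Mmp12 (ENSMUSG00000049723), the macrophage elastase, lies between Mmp13 and Mmp3 and had another order. It stood at 2.65, 4.96, 3.27 and 3.59 CPM in duodenal libraries 1 to 4, 4.29, 4.19, 3.22 and 4.04 in the jejunal, 3.27, 3.25, 3.19 and 3.08 in the ileal, 10.2, 6.51, 5.54 and 10.5 in the ceco-colonic and 10.8, 13.9, 16.6 and 18.3 in the inguinal libraries. Inguinal libraries were the highest and did not overlap the gut libraries, and ceco-colonic libraries lay between them and the small intestinal ones. Fold changes were -1.76 ± 0.14 (SE), adjusted p = 9.24e-09 for gut-draining against inguinal nodes and -1.20 ± 0.16 (SE), adjusted p = 1.37e-05 for small intestinal against ceco-colonic nodes. Macrophage markers (5 genes), of which Csf1r has the highest CPM, summed to 1471 to 1573 CPM in inguinal, 1015 to 1160 in ceco-colonic, 906 to 1254 in duodenal, 1411 to 1671 in jejunal and 1303 to 1645 CPM in ileal libraries. Of the 5, Timd4 stood at 307 to 354 CPM in inguinal, 37.4 to 52.5 in ceco-colonic and 23.2 to 42.6 CPM in small intestinal libraries, so it was highest where Mmp12 was. Cd68 was at 170.4 to 205 CPM in inguinal, 136 to 175 in ceco-colonic and 95.3 to 170.5 CPM in small intestinal libraries. Mrc1 was at 212 to 237 CPM in inguinal, 81.1 to 111 in ceco-colonic and 104 to 227 CPM in small intestinal libraries. Csf1r was at 594 to 675 CPM in inguinal, 622 to 734 in ceco-colonic and 565 to 1099 CPM in small intestinal libraries. Adgre1 was at 130 to 158.5, 100.3 to 123 and 97.5 to 231 CPM in the same order. Every jejunal and ileal library lay above every inguinal one for Csf1r and Adgre1, unlike for Mmp12. The part of macrophages in the Mmp12 difference was not tested.

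Mmp27 (ENSMUSG00000070323) stood at 2.29, 2.32, 2.04 and 2.66 CPM in duodenal libraries 1 to 4, 2.22, 2.40, 2.26 and 2.04 in the jejunal, 2.41, 2.49, 2.63 and 2.32 in the ileal, 2.25, 2.91, 3.09 and 2.91 in the ceco-colonic and 4.47, 4.21, 5.67 and 4.84 in the inguinal libraries. The inguinal libraries were the 4 highest, and the gut positions lay close to one another. Its fold change was -0.97 ± 0.084 (SE), adjusted p = 2.01e-08 in gut-draining against inguinal nodes and -0.26 ± 0.091 (SE), adjusted p = 0.0625 in small intestinal against ceco-colonic nodes.

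Mmp8, the collagenase of neutrophil granules, stood at 1.54, 1.93, 1.26 and 1.70 CPM in duodenal libraries 1 to 4, 1.26, 0.942, 1.12 and 1.18 in the jejunal, 0.869, 1.06, 0.737 and 0.634 in the ileal, 1.64, 2.31, 1.49 and 1.85 in the ceco-colonic and 1.61, 2.88, 1.66 and 1.49 in the inguinal libraries. Ileal and inguinal libraries were furthest apart, and inguinal library 2 was the highest of all. The fold change was -0.58 ± 0.16 (SE), adjusted p = 0.00843 in gut-draining against inguinal nodes and -0.67 ± 0.16 (SE), adjusted p = 0.00629 in small intestinal against ceco-colonic nodes. Without inguinal library 2 the former was -0.31 with adjusted p = 0.157, and without ceco-colonic library 2 the latter was -0.54 with adjusted p = 0.0542. Neutrophil markers (5 genes) summed to 42.2 CPM in inguinal library 2 and to 21.04 to 34.8 CPM in the other inguinal libraries, to 30.7 CPM in ceco-colonic library 2 and 16.4 to 25.8 in the others there, and to 8.07 to 14.98 CPM in ileal libraries. Their part in the Mmp8 differences was not tested.

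The run also held Mmp20, the enamel protease of teeth, and Mmp7, the epithelial matrilysin. Mmp20 was at 0.252 ± 0.0548 CPM in gut and 0.123 ± 0.0353 CPM in inguinal libraries (adjusted p = 7.27e-04), from at most 90 estimated counts per library. Mmp7 was at 1.55 ± 0.266 and 1.62 ± 0.242 CPM (-0.068 ± 0.14 (SE), adjusted p = 0.774), and its test among the 5 positions gave adjusted p = 0.806. Of the 5 neighbouring genes that share the AP-1 letters, Mmp12 was highest in inguinal nodes, and Mmp3 and Mmp13 were highest in ceco-colonic nodes. Mmp20 was higher in gut-draining than in inguinal nodes, and Mmp7 was not called.

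**Figure D4:**
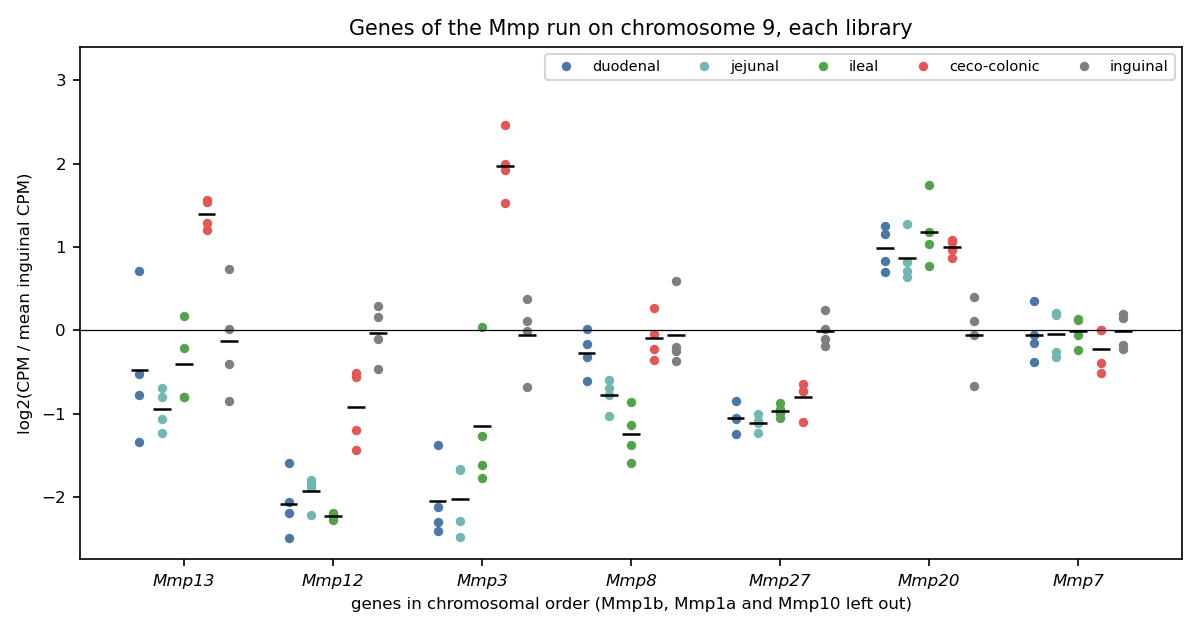
Level of 7 neighbouring Mmp genes of chromosome 9 in each library, as log2 of CPM over the gene's inguinal mean, with genes in chromosomal order, positions as colours and bars at the mean of the 4 log2 values. Ceco-colonic points of Mmp13 and Mmp3 lie above 0 and those of Mmp12 and Mmp27 below it, while the points of Mmp7 surround 0 at every position.

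The gelatinases were Mmp2 and Mmp9. Mmp2 (ENSMUSG00000031740), made mainly by stromal cells, stood at 85.9, 80.9, 101.1 and 86.3 CPM in duodenal libraries 1 to 4, 96.1, 115, 91.2 and 106 in the jejunal, 107, 103, 111 and 114 in the ileal, 69.3, 74.7, 89.5 and 69.5 in the ceco-colonic and 51.4, 55.3, 63.0 and 63.7 in the inguinal libraries. Every gut library lay above every inguinal library, and the ceco-colonic libraries were the lowest of the gut apart from an overlap with duodenal ones. Mmp2 was higher in gut-draining than in inguinal nodes (0.67 ± 0.078 (SE), adjusted p = 1.20e-06) and higher in small intestinal than in ceco-colonic nodes (0.39 ± 0.078 (SE), adjusted p = 0.00123). The fibroblast sum was 2098 to 2515 CPM in inguinal, 2412 to 2665 in ceco-colonic and 2779 to 3460 CPM in small intestinal libraries, so inguinal and ceco-colonic libraries overlapped. Single markers differed. In the same order Lum was at 29.8 to 68.3, 170 to 234 and 217 to 286.5 CPM. Dcn was at 818 to 1007, 725 to 858 and 1094 to 1443 CPM. Pdgfra was at 65.7 to 96.6, 64.5 to 71.9 and 61.3 to 100.5 CPM, and Col1a1 at 511.5 to 676, 530.5 to 657.5 and 449 to 654 CPM. Col1a2, Pi16 and Dpt overlapped between inguinal and ceco-colonic libraries. The part of fibroblasts in the Mmp2 difference was not tested. Mmp9, the gelatinase of leukocytes, was at 23.0 ± 4.87 CPM in gut and 17.4 ± 4.19 CPM in inguinal libraries (0.39 ± 0.15 (SE), adjusted p = 0.0613), a value that passed the threshold with DESeq2 (adjusted p = 0.0311).

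The activator of Mmp2 was also higher in gut-draining nodes. Mmp14 (ENSMUSG00000000957), the membrane-type enzyme that opens the Mmp2 precursor, stood at 171, 171, 177 and 189.7 CPM in duodenal libraries 1 to 4, 178, 205, 198 and 222 in the jejunal, 209.5, 228, 234 and 229.8 in the ileal, 218, 255, 247 and 224 in the ceco-colonic and 143, 171, 178 and 178 in the inguinal libraries. Gut libraries reached from 170.6 to 255 CPM and inguinal libraries from 143 to 178 CPM, so the groups overlapped. The fold change was 0.32 ± 0.062 (SE), adjusted p = 6.03e-04 in gut-draining against inguinal nodes and -0.24 ± 0.062 (SE), adjusted p = 0.0103 in small intestinal against ceco-colonic nodes. The latter call ended without ceco-colonic library 2 (adjusted p = 0.0717) or 3 (adjusted p = 0.0513).

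Of the 6 membrane-type genes 4 were higher in gut-draining nodes and 1 was lower, beside 13.4% and 12.9% of all genes. Mmp16 (ENSMUSG00000028226), another transmembrane enzyme able to activate Mmp2, stood at 1.86, 2.90, 2.80 and 2.42 CPM in duodenal libraries 1 to 4, 2.13, 1.74, 1.996 and 2.08 in the jejunal, 2.09, 1.75, 2.71 and 1.81 in the ileal, 3.36, 3.65, 3.63 and 3.23 in the ceco-colonic and 1.25, 0.943, 0.990 and 1.16 in the inguinal libraries. Gut and inguinal libraries did not overlap, and ceco-colonic libraries lay above the small intestinal ones. Fold changes were 1.18 ± 0.13 (SE), adjusted p = 5.22e-07 for gut-draining against inguinal nodes and -0.67 ± 0.12 (SE), adjusted p = 3.10e-04 for small intestinal against ceco-colonic nodes. Mmp25, held by a lipid anchor, was higher in gut libraries, at 162 ± 26.6 CPM against 124 ± 3.405 CPM in inguinal ones (0.37 ± 0.090 (SE), adjusted p = 0.00340). Mmp15 went the other way (-0.28 ± 0.088 (SE), adjusted p = 0.0226), a call that ended without inguinal library 2, 3 or 4, with adjusted p of 0.142, 0.0697 and 0.0835. Mmp24 rests on 3 to 44 estimated counts per library and was not called in any comparison.

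The anchored enzyme Mmp17 was highest in the libraries with most smooth muscle transcripts. It stood at 6.02, 13.99, 15.6 and 7.73 CPM in duodenal libraries 1 to 4, 6.92, 8.63, 7.08 and 7.58 in the jejunal, 7.69, 6.42, 6.89 and 7.27 in the ileal, 6.39, 4.83, 6.13 and 4.90 in the ceco-colonic and 3.95, 3.88, 3.61 and 4.28 in the inguinal libraries. The gut libraries lay above the inguinal ones, with duodenal libraries 2 and 3 highest. The fold change was 0.94 ± 0.17 (SE), adjusted p = 3.22e-04 in gut-draining against inguinal nodes and 0.58 ± 0.17 (SE), adjusted p = 0.0242 in small intestinal against ceco-colonic nodes, and the latter ended without ceco-colonic library 2 (adjusted p = 0.0984) or 4 (adjusted p = 0.0957). In duodenal against ileal nodes it was 0.62 ± 0.21 (SE), adjusted p = 0.0494, and without duodenal libraries 2 and 3, those with smooth muscle markers at 973 and 988 CPM, it was -0.028 with adjusted p = 0.923.

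Among the other metalloproteinases, Mmp28 (ENSMUSG00000020682), known as epilysin, stood at 4.47, 5.79, 7.56 and 4.84 CPM in duodenal libraries 1 to 4, 5.42, 9.31, 6.55 and 5.93 in the jejunal, 8.20, 6.61, 6.66 and 9.48 in the ileal, 5.35, 3.85, 5.72 and 5.50 in the ceco-colonic and 14.4, 12.6, 12.4 and 12.8 in the inguinal libraries. Inguinal libraries lay above all gut libraries. It fell by 1.06 ± 0.13 (SE) in gut-draining against inguinal nodes (adjusted p = 2.58e-06), and small intestinal against ceco-colonic nodes gave 0.39 ± 0.15 (SE), adjusted p = 0.0855. Mmp11, or stromelysin-3, was slightly higher in gut nodes (0.34 ± 0.093 (SE), adjusted p = 0.00927).

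Mmp23 (ENSMUSG00000029061), high in TPM, differed little. It stood at 47.2, 46.9, 53.6 and 54.5 CPM in duodenal libraries 1 to 4, 53.7, 53.0, 52.6 and 70.8 in the jejunal, 61.7, 66.3, 63.8 and 67.1 in the ileal, 59.6, 56.4, 60.2 and 62.8 in the ceco-colonic and 50.9, 56.3, 54.3 and 56.0 in the inguinal libraries. Duodenal libraries 1 and 2 were the lowest and jejunal library 4 the highest, and the ileal libraries lay above all duodenal ones. Gut-draining against inguinal nodes gave 0.090 ± 0.064 (SE), adjusted p = 0.349, and duodenal against ileal nodes -0.36 ± 0.081 (SE), adjusted p = 0.00698. Mmp19 and Mmp21 were not called among the 5 positions (adjusted p = 0.447 and 0.874).

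Of the 7 Adamts genes that encode proteoglycan-cleaving enzymes, 3 were higher in gut-draining nodes, 1 was lower and 3 were not called. Of all genes 13.4% were higher there and 12.9% lower. Adamts8 (ENSMUSG00000031994), an aggrecan-cleaving protease that also restrains vessel growth, stood at 3.30, 8.78, 7.82 and 5.26 CPM in duodenal libraries 1 to 4, 3.65, 2.70, 4.71 and 4.72 in the jejunal, 2.95, 3.31, 3.92 and 2.71 in the ileal, 7.96, 6.63, 5.34 and 6.56 in the ceco-colonic and 1.03, 0.852, 1.13 and 1.03 in the inguinal libraries. Each gut library was above each inguinal library, and duodenal libraries 2 and 3 and the ceco-colonic libraries were the highest. The fold change in gut-draining against inguinal nodes was 2.25 ± 0.22 (SE), adjusted p = 1.15e-07. Small intestinal against ceco-colonic nodes gave -0.62 ± 0.18 (SE), adjusted p = 0.0228, which ended without ceco-colonic library 1 (adjusted p = 0.111), 2 (0.0613) or 4 (0.0593). Smooth muscle markers summed to 409 to 490.3 CPM in inguinal libraries, where Adamts8 was lowest, and to 274 to 305 CPM in ceco-colonic libraries. Single markers differed. Cnn1 was at 35.8 and 37.3 CPM in duodenal libraries 2 and 3 against 1.11 to 2.17 CPM in inguinal ones, and Des at 185 and 194.5 against 168 to 203 CPM. Within the duodenal position Adamts8 and the marker sum were lowest in library 1 and highest in libraries 2 and 3. Without libraries 2 and 3 the Adamts8 difference from inguinal nodes was 2.11. The part of smooth muscle in these differences was not tested.

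**Figure D5:**
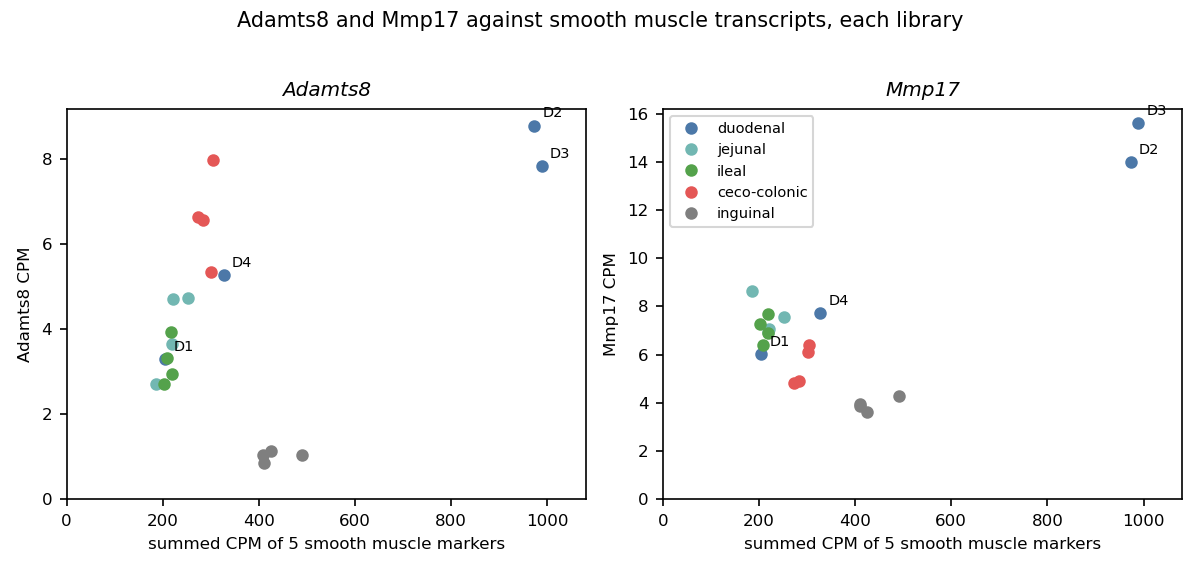
CPM of Adamts8 (left) and Mmp17 (right) against the summed CPM of 5 smooth muscle markers, 1 point per library, with duodenal libraries 1 to 4 marked D1 to D4. D2 and D3 stand apart at 973 and 988 CPM of markers with the highest levels of Mmp17, while the inguinal libraries combine 409 to 490.3 CPM of markers with the lowest levels of both genes. Inguinal sums were mostly Des, Myh11 and Acta2, with Cnn1 at 1.11 to 2.17 CPM, against 35.8 and 37.3 CPM in D2 and D3.

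Adamts15, the neighbour of Adamts8 on chromosome 9 with 0 protein-coding genes between them, was at 7.18 ± 1.42 CPM in gut and 6.44 ± 1.13 CPM in inguinal libraries (0.14 ± 0.13 (SE), adjusted p = 0.467). Another neighbouring pair lies on chromosome 16. There Adamts5, the main aggrecanase of mouse cartilage, was lower in gut-draining nodes (18.1 ± 3.66 against 27.1 ± 4.82 CPM, -0.60 ± 0.11 (SE), adjusted p = 2.02e-04), and the adjacent Adamts1 was not called (0.081 ± 0.20 (SE), adjusted p = 0.818). Adamts20 was higher in gut-draining nodes (0.57 ± 0.14 (SE), adjusted p = 0.00468), with 10.3 to 14.5 CPM in duodenal and 5.12 to 6.95 CPM in inguinal libraries. Adamts4, a versican- and aggrecan-cleaving enzyme, was higher as well (0.40 ± 0.12 (SE), adjusted p = 0.0165), a call that ended without inguinal library 1 (adjusted p = 0.0682) or 3 (adjusted p = 0.0678). Adamts9 varied little, from 16.1 to 21.4 CPM over the 20 libraries, with adjusted p = 0.879 among the 5 positions.

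The 3 procollagen N-proteinases, which trim the amino end of fibrillar procollagens, were called lower in gut-draining nodes in 1 case and higher in 0. Of all genes 12.9% were lower there and 13.4% higher. Adamts14 (ENSMUSG00000059901) stood at 28.7, 33.0, 31.5 and 31.8 CPM in duodenal libraries 1 to 4, 27.1, 23.5, 31.2 and 34.4 in the jejunal, 31.7, 35.0, 38.3 and 26.6 in the ileal, 38.1, 45.2, 55.5 and 44.4 in the ceco-colonic and 61.7, 77.3, 62.2 and 58.2 in the inguinal libraries. All inguinal libraries lay above all gut libraries, and the ceco-colonic ones were the highest of the gut except that 1 ileal library overlapped them. Fold changes were -0.92 ± 0.10 (SE), adjusted p = 2.60e-07 in gut-draining against inguinal nodes and -0.56 ± 0.10 (SE), adjusted p = 4.94e-04 in small intestinal against ceco-colonic nodes. Adamts2 was at 45.6 ± 12.1 CPM in gut and 33.7 ± 6.11 CPM in inguinal libraries (0.41 ± 0.15 (SE), adjusted p = 0.0541). It was called there with DESeq2 (adjusted p = 0.0244), limma-voom (0.0492) and transcript sums (0.0428). Adamts3 gave 0.26 ± 0.12 (SE), adjusted p = 0.146.

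Adamts13, which cuts von Willebrand factor, gave -0.19 ± 0.087 (SE), adjusted p = 0.127 in gut-draining against inguinal nodes, and Adamts7 and Adamts12, which cut cartilage oligomeric matrix protein, gave -0.089 ± 0.074 (SE), adjusted p = 0.437 and 0.17 ± 0.13 (SE), adjusted p = 0.364. Adamts18 was lower in gut-draining nodes (0.407 ± 0.0909 against 0.659 ± 0.0807 CPM, -0.70 ± 0.16 (SE), adjusted p = 0.00248). Adamts16 gave 2.74 ± 0.77 (SE), adjusted p = 0.0114, from 0 to 55 estimated counts per library and with 2 inguinal libraries at 0, so its size is uncertain. Adamts17, which like Adamts10 acts on microfibrils, was lower in small intestinal than in ceco-colonic nodes (-0.48 ± 0.14 (SE), adjusted p = 0.0241), a call that ended without ceco-colonic library 3 (adjusted p = 0.0906) or 4 (adjusted p = 0.119). Of the 5 Adamts-like genes, Adamtsl2 was higher in gut-draining nodes (3.44 ± 1.08 against 1.80 ± 0.661 CPM, 0.88 ± 0.18 (SE), adjusted p = 8.04e-04). It was also higher in small intestinal than in ceco-colonic nodes (0.87 ± 0.18 (SE), adjusted p = 0.00193), as was Adamtsl1 (0.87 ± 0.22 (SE), adjusted p = 0.00846). Of the TPM of Adamtsl1, 54.1%, 26.0%, 44.0% and 68.7% lay outside protein-coding transcripts in duodenal, jejunal, ileal and ceco-colonic nodes. With transcript sums this Adamtsl1 call held, and its call in duodenal against ileal nodes ended. Adamtsl3 gave 0.37 ± 0.15 (SE), adjusted p = 0.0706 in gut-draining against inguinal nodes, and was called there with DESeq2, limma-voom and transcript sums. Adamts6 was called in small intestinal against ceco-colonic nodes (0.34 ± 0.10 (SE), adjusted p = 0.0185), which ended without ceco-colonic library 4 (adjusted p = 0.104). Adamts10 was not called in gut-draining against inguinal or in small intestinal against ceco-colonic nodes. Adamts19, Adamtsl4 and Adamtsl5 were not called among the 5 positions (adjusted p = 0.475, 0.302 and 0.640). With counts summed from transcripts, without the length scaling, Adamtsl4 was called among the 5 positions (adjusted p = 0.000101) and was lower in gut-draining than in inguinal nodes (-0.41, adjusted p = 1.77e-05, against -0.11 ± 0.069 (SE) as deposited).

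Within the small intestine few members were called between neighbouring positions. In jejunal against ileal nodes 0 of 48 members were called by edgeR, beside 0.068% of all genes. At an unadjusted p under 0.05 there were 5 (Adamts20, Mmp3, Mmp8, Mmp14 and Mmp23, chosen for that p), and DESeq2 and limma-voom also called 0. The members' fold changes ran from -1.03 to 0.95, with a median absolute value of 0.18 against 0.10 over all genes. In duodenal against jejunal nodes 14 members had an unadjusted p under 0.05. The shares of all genes given here are for adjusted calls. The share at an unadjusted p under 0.05 was not computed, so the counts of 5 and 14 have no share beside them. After adjustment 1 member was called in duodenal against jejunal nodes, beside 2.83% of all genes. This was Adamts4, at 2.05 to 3.04 CPM in duodenal and 3.33 to 4.65 CPM in jejunal libraries (-0.58 ± 0.15 (SE), adjusted p = 0.0407), a call that ended when any 1 of 12 libraries was left out (duodenal 1 and 2, jejunal 2, 3 and 4, ileal 1, 3 and 4, ceco-colonic 4, and inguinal 1, 2 and 4), with adjusted p of 0.0501 to 0.115. In duodenal against ileal nodes 6 members were higher and 10 lower, beside 6.58% and 8.03% of all genes. The 6 were Adamts8, Adamts20, Adamtsl1, Mmp8, Mmp15 and Mmp17, and the 10 were Adamts2, Adamts4, Adamts17, Mmp2, Mmp11, Mmp14, Mmp23, Mmp25, Timp1 and Timp2. Of these 16 calls 5 were left without duodenal libraries 1 and 2, those with acinar transcripts, and 6 without libraries 2 and 3, those with smooth muscle transcripts, where Mmp28 and Timp3 were called in addition. Either step leaves 2 duodenal libraries, and some folds of lost calls changed little. The shares of all genes called in these 2 fits are not given here, so the fall in calls cannot be read as particular to the members. Without libraries 1 and 2 the fold change of Adamts17 was -0.56 (from -0.59), that of Adamts2 -0.72 (from -0.82) and that of Adamtsl1 1.02 (from 0.87). Single libraries ended 7 of the 16 calls in some case, those of Adamts17, Adamtsl1, Mmp2, Mmp11, Mmp17, Timp1 and Timp2, and 18 of the 20 libraries did so for Mmp17. The call of Adamts20 (0.94 ± 0.17 (SE), adjusted p = 0.00188) and that of Adamts4 (-0.85 ± 0.15 (SE), adjusted p = 0.00138) held in both cases. That of Adamts8 (0.97 ± 0.23 (SE), adjusted p = 0.0101) ended without libraries 2 and 3, at 0.42 with adjusted p = 0.253. Leaving out ileal library 4 gave 9 calls. In ileal against ceco-colonic nodes 4 members were higher and 9 lower, beside 7.43% and 5.32% of all genes, among them Mmp3 (-2.97 ± 0.37 (SE), adjusted p = 1.18e-05), Mmp12 (-1.35 ± 0.21 (SE), adjusted p = 1.24e-04) and Mmp13 (-1.75 ± 0.36 (SE), adjusted p = 0.00219).

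Genes that act with these proteases were followed in 4 lists, and the counts of each list stand beside the shares of all genes tested. In gut-draining against inguinal nodes 13.4% of all genes were higher and 12.9% lower. In small intestinal against ceco-colonic nodes 8.9% were higher and 7.74% lower. Of 14 other inhibitors and cofactors, 3 were higher and 6 lower in gut-draining than in inguinal nodes, with a median fold change of -0.056. A2m, the plasma protease inhibitor alpha-2-macroglobulin, was higher (4.04 ± 2.11 against 0.772 ± 0.195 CPM, 2.16 ± 0.17 (SE), adjusted p = 5.64e-09). Spock3, a testican proteoglycan (-1.38 ± 0.13 (SE), adjusted p = 5.64e-08), and Cd44, a hyaluronan receptor that docks Mmp9 and Mmp14 at the surface (-0.50 ± 0.059 (SE), adjusted p = 1.55e-06), were lower. Between small intestinal and ceco-colonic nodes, 3 of the 14 were higher and 1 lower.

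Plasmin can open several metalloproteinase precursors. Of 8 genes of plasminogen activation, 7 were tested, and 2 were higher and 3 lower in gut-draining nodes, with a median of 0.072. Plau, the urokinase that makes plasmin, was lower (31.4 ± 5.38 against 44.1 ± 3.52 CPM, -0.51 ± 0.051 (SE), adjusted p = 1.64e-07). Serpinb2, an inhibitor of urokinase, was lower as well (-1.99 ± 0.22 (SE), adjusted p = 8.15e-07). Between small intestinal and ceco-colonic nodes 0 were higher and 2 lower, among them Plau (-0.47 ± 0.053 (SE), adjusted p = 2.33e-06).

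Other proteases of matrix and membrane numbered 20, and 6 were higher and 4 lower in gut-draining nodes, with a median of 0.037. The highest fold change of the list was that of Adamdec1, a secreted Adam-like protease of gut macrophages and stroma (21.9 ± 4.91 against 3.90 ± 0.468 CPM, 2.47 ± 0.15 (SE), adjusted p = 1.25e-10). Adam8 (427 ± 64.0 against 227 ± 0.340 CPM, 0.91 ± 0.10 (SE), adjusted p = 9.47e-07) and Adam19 (0.69 ± 0.074 (SE), adjusted p = 3.76e-07), membrane proteases of the related Adam family, were higher too. Between small intestinal and ceco-colonic nodes 6 of the 20 were higher and 6 lower.

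Of 11 substrates of Adamts proteases 10 were tested, and 3 were higher and 1 lower in gut-draining nodes, with a median of 0.13. The collagen gene Col3a1 (0.46 ± 0.095 (SE), adjusted p = 9.60e-04) and the microfibril gene Fbn2 (0.57 ± 0.12 (SE), adjusted p = 7.40e-04) were higher. Vwf, the substrate of Adamts13, was lower (118 ± 24.2 against 228 ± 18.4 CPM, -0.96 ± 0.10 (SE), adjusted p = 1.83e-07). Between small intestinal and ceco-colonic nodes 1 was higher and 2 lower.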

How the data were processed

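PolyA RNA of whole nodes was extracted with PicoPure and made into libraries with NEBNext kits, per the labels' protocols. Kallisto, limma and edgeR and the builds GRCm39 and mm10 are named in the submitters' processing notes, with roles and versions not given in the sources used here. Per gene, the deposited table holds estimated counts, and the authors' transcript tables hold estimated counts and TPM, per the file headers. For 12483 genes with at least 500 counts, 99.7% of the deposited gene values lay within 0.001 (log2) of length-scaled TPM sums, and 3.35% within that distance of plain transcript sums, so a gene's value also depends on the transcript lengths assigned to it.

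Counts were rounded, filtered with filterByExpr, scaled by TMM and fitted over all 20 libraries with 1 coefficient per position by edgeR's quasi-likelihood test (edgeR 4.0.16, R 4.3.3, limma 3.58.1), with Benjamini-Hochberg adjustment over 29411 genes. The threshold was an adjusted p of 0.05. CPM uses TMM-scaled library sizes. The median biological coefficient of variation was 0.157. Alternatives were DESeq2 1.42.0, DESeq2-type size factors, limma-voom, no filter, transcript sums, only the positions compared, a replicate block and leaving out each library.

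Values in every library were given for the 4 Timp genes, the 10 members with the smallest p among the 5 positions, the 5 with the smallest p among the 4 gut positions and the 4 with the highest mean TPM, and for up to 3 called genes of each pathway list by smallest p group means or fold changes were given. Mmp8 and Mmp17 were outside this rule and were chosen after their values were seen. Promoter sequences came from RefSeq tables of GRCm38.p6. The fits were tested on simulated data. Of the pathway lists, 1 gene that the rule selects is not reported here. The members and lists were chosen with earlier results of these data known.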

Additional observations from a re-analysis of the deposited data

Results flagged for a closer look

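In each position the library furthest from the other 3 was compared with the spread of the group, for the 15 genes selected by the rule for named genes, which made 75 groups, and chance sets a library apart in about 1 in 20 groups. The test set 2 libraries apart. Mmp23 stood at 70.76 CPM in jejunal library 4, against 52.57 to 53.66 CPM in the other jejunal libraries. Mmp3 stood at 26.38 CPM in ileal library 2, against 7.457 to 10.63 CPM in the other ileal libraries. Mesothelial markers (4 genes) summed to 6.06 CPM in that ileal library and to 4.40 to 4.68 CPM in the others. Jejunal library 2 had a higher mesothelial sum, 8.19 CPM, with Mmp3 at 8.07 CPM, and the part of these cells in the Mmp3 level was not tested.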

How the results depend on the processing

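Leaving out 1 library at a time gave 29 to 33 called members among the 5 positions, 19 to 27 among the 4 gut positions, 21 to 26 for gut-draining against inguinal, 13 to 21 for small intestinal against ceco-colonic and 17 to 23 for ceco-colonic against inguinal nodes. It gave 10 to 15 for ileal against ceco-colonic, 9 to 15 for duodenal against ileal, 0 to 2 for duodenal against jejunal and 0 to 0 for jejunal against ileal nodes. For the alternative fits the shares of all genes called are not given here. A change in a count of members can therefore not be read as particular to them. The single call of duodenal against jejunal nodes became 0 with no filter on low counts, with limma-voom, with only the positions compared and without duodenal libraries 1 and 2. Without duodenal libraries 2 and 3 it was lost as well and 2 other members, Adamts2 and Timp2, were called. For duodenal against ileal nodes 5 members were called without duodenal libraries 1 and 2, all among the 16, and 8 without libraries 2 and 3, of which 6 were among the 16; both of these alternatives were chosen after seeing the data. In every fit that left out 1 library, 29 of 32 calls held among the 5 positions, 17 of 26 among the 4 gut positions, 20 of 24 for gut-draining against inguinal, 11 of 19 for small intestinal against ceco-colonic, 16 of 20 for ceco-colonic against inguinal, 9 of 16 for duodenal against ileal and 9 of 13 for ileal against ceco-colonic nodes. For the 15 genes selected by the rule, only gut-draining against inguinal and small intestinal against ceco-colonic nodes were followed over the alternatives. There 846 values kept their side of the threshold, 5 passed it newly and 19 no longer passed it. Of values called in the main fit or in the alternative, 0 changed sign. A change of sign in a value called in neither was not counted.

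Libraries share numbers 1 to 4 across positions. Over 40 pairs of the same number, deviations from the position means correlated at -0.0863 to 0.357 (median 0.075), and 13 pairs were over 0.1. Each library's correlations with libraries of other positions were also averaged by number. For 17 of 20 libraries the highest average was that of their own number, a hint from the data and not from the design. With a replicate block 28 members were called in gut-draining against inguinal nodes, 21 in small intestinal against ceco-colonic nodes and 2 in duodenal against jejunal nodes. The shares of all genes called with the block are not given here, so these counts cannot be read as particular to the members. Precision is limited by 4 libraries a position and, for Adamts16, Mmp24, Mmp21 and Mmp20, by low counts.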
